A study of Mus musculus with 33 samples.

Results

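The 213 guide RNAs (gRNAs) described here target the DNA 0.5 to 2 kb upstream of Tdgf1 in a CRISPR mutation screen of mouse embryonic stem cells. They were chosen by position, with earlier results of these data known. Included is every gRNA of the Tdgf1 library whose interval has its midpoint in chr9:110946659-110948158 (mm10). Distances below run from that midpoint to the annotated 5′ end of Tdgf1 at 110946158, which is on the minus strand, so upstream means higher coordinates. They are 213 of 3918 gRNAs in the Tdgf1 library and of 15672 in the 4 libraries of the series. No RefSeq gene span overlaps the stretch, and the neighbouring gene Lrrc2 begins 3387 bp beyond its far edge. The intervals run from chr9:110946654-110946675 to chr9:110948145-110948167. Neighbouring gRNAs start a median of 4 bp apart and at most 36 bp apart, and 197 of them overlap the next one. The gRNAs are therefore not independent probes of the sequence.

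All cells were embryonic stem cells in which a GFP sequence replaced sequence at the Tdgf1 transcription start site, with a dummy gRNA placed at the ROSA26 locus beforehand. They were cultured with serum, LIF, a GSK-3 inhibitor and the MEK inhibitor UO126. After the gRNA library was introduced, genomic DNA was taken from cells sorted as GFP-negative, from cells sorted as GFP-medium, and from the unsorted bulk population, with 3 numbered replicates of each. The labels tie each set of 3 populations to a numbered replicate of the line without saying whether the cultures were grown apart. The p-values below therefore reflect the spread between these libraries, which may be technical. Here, GFP stands in for the activity of the Tdgf1 promoter, and the assay reads which gRNA a cell carries, not which mutation it received.

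Tdgf1, also called Cripto, encodes a membrane-anchored co-receptor for Nodal, a signal that patterns the early embryo, and it is expressed in pluripotent cells. A core promoter places the transcription machinery, while upstream sequence can hold binding sites for factors that set how strongly a gene is transcribed. Cas9 guided to such a site leaves small insertions or deletions. If these lower transcription, cells with that gRNA move out of the GFP-positive gate, and the gRNA becomes more frequent in a sorted population than in bulk. The question of the comparison is thus at which upstream positions mutation goes with loss of GFP, in part (GFP-medium) or in full (GFP-negative).

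The libraries held 608532 to 719247 gRNA counts in GFP-negative, 379072 to 461825 in GFP-medium and 107960 to 123840 in bulk cells. Values are given as shares of a library's gRNA counts or as CPM, which is such a share for 1 gRNA scaled to a library of 1000000 counts. A single count is worth 1.39 to 1.64 CPM in GFP-negative cells, 2.17 to 2.64 CPM in GFP-medium and 8.07 to 9.26 CPM in bulk libraries. Both measures are relative: a larger share cannot tell more of some gRNAs from less of the others. Of the 213 gRNAs, 119, 174 and 112 were counted in GFP-negative replicates 1, 2 and 3, 103, 145 and 78 in the GFP-medium and 199, 193 and 188 in the bulk replicates. Over the whole Tdgf1 library the detected portion was 25.3 to 53.8% in GFP-negative, 13.6 to 30.6% in GFP-medium and 88.2 to 92.8% in bulk libraries, against 52.6 to 81.7%, 36.6 to 68.1% and 88.3 to 93.4% for the upstream gRNAs. Of the 213, 5 had no count in any library, 19 had none in any sorted library, and 32 were counted in all 6 sorted libraries.

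Set against bulk, GFP-negative cells carried more counts of the upstream gRNAs, concentrated in a minority of them. The 213 gRNAs took 17.7%, 17.0% and 20.8% of counts in GFP-negative replicates 1, 2 and 3, against 6.07%, 5.98% and 5.48% in bulk. The 2 populations did not overlap, and the mean shares of 18.5% ± 1.98 and 5.84% ± 0.320 (SD, n = 3 each) differed 3.17-fold, a log2 ratio of 1.66. The gRNA in the middle of the list was nevertheless not enriched: the median over the 213 was 32.6, 356 and 16.4 CPM in GFP-negative, against 209, 242 and 204 CPM in bulk replicates 1, 2 and 3, so it was above bulk only in replicate 2. Over all 3918 gRNAs the median was 0, 6.95 and 0 CPM in GFP-negative and 192, 209.9 and 195 CPM in bulk. In GFP-negative cells the 10 most counted upstream gRNAs held 23.8 to 44.7% of the stretch's counts, against 14.5 to 16.1% in bulk.

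No upstream gRNA was called higher on its own in GFP-negative cells. Of the 213, 186 passed the filter on low counts; the 27 that did not had at most 90.6 CPM on average in bulk. EdgeR's quasi-likelihood test, fitted to all 9 libraries and all 3172 gRNAs that passed, called 0 of the 186 higher at an adjusted p under 0.05, where 0% of all tested gRNAs were called. DESeq2 called 0, against 0.189% of all, and limma-voom 0, against 0% of all. The Tdgf1 library also holds 10 GFP-targeting gRNAs, the positive controls, with a mean of 6.52% of GFP-negative and 0.210% of bulk counts. Of these controls, 9 were above every bulk library in each GFP-negative library. EdgeR and limma-voom called none of them higher, so a lack of calls does not show a lack of enrichment. At an unadjusted p under 0.05 edgeR had 0 of the 186 higher, where 0.158% of all were, and 10 lower, where 27.9% of all were. EdgeR called 5 of the 186 lower (2.69%), where 22.2% of all tested gRNAs were called, and DESeq2 called 9, against 31.9% of all. The median fitted log2 change over all tested gRNAs was -1.67. With the replicate number as a block both counts were 0, for the upstream and for all gRNAs (at an unadjusted p under 0.05 the block fit had 7 upstream gRNAs lower, where 31.7% of all were, and 0 higher, where 0% were). The number called lower was 21 without GFP-negative replicate 2, 3 without bulk replicate 2, and 8, 11 and 8 without GFP-medium replicates 1, 2 and 3. The share of all tested gRNAs called without these libraries was not counted, so a change particular to the upstream gRNAs cannot be read from these numbers.

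Counted without a test, 26 of the 213 (12.2%) were higher in all 3 GFP-negative libraries than in all 3 bulk libraries, where 1.51% of the 3918 gRNAs were. In the other direction, 17 (7.98%) were lower in all 3, where 42% of all gRNAs were. The 26 lay between 534 and 1998 bp upstream and had mean levels 2.71 to 10.9 times those in bulk, with a median of 5.04. They held 35.7% of the stretch's GFP-negative counts and 20.5% of its bulk counts. Their adjusted p-values in edgeR's test were 0.243 to 0.838.

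The largest fitted change among those 26 was at chr9:110947444-110947466, 1297 bp upstream. It had 2945, 1192 and 11012 CPM in GFP-negative replicates 1, 2 and 3, against 267, 452 and 676 CPM in bulk. Every GFP-negative library was above every bulk library, with replicate 3 far above the others (log2 change 3.59, adjusted p = 0.243, or adjusted p = 0.479 with the replicate block). At chr9:110947349-110947371, 1202 bp upstream, the levels were 2694, 1129 and 5372 CPM in GFP-negative and 251, 339 and 324 CPM in bulk replicates. The means were 3065 ± 2146 and 305 ± 47.3 CPM (log2 change 3.49, adjusted p = 0.265). Its neighbour 23 bp closer to the gene, chr9:110947326-110947348, had 1339, 3968 and 7337 CPM in GFP-negative and 501, 493 and 621 CPM in bulk cells. Both gRNAs were thus above bulk in every GFP-negative library, and neither passed the test (adjusted p = 0.344 for the second).

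Near the inner edge of the stretch 2 gRNAs were high in a different way. chr9:110946710-110946732, 563 bp upstream, had 5379, 3326 and 4448 CPM in GFP-negative and 501, 315 and 509 CPM in bulk cells. It had the most even GFP-negative levels of the 8 largest changes among the 26, with a mean of 4384 ± 1028 CPM (log2 change 3.48, adjusted p = 0.511). In contrast, chr9:110946681-110946703 had 12535, 2187 and 1040.2 CPM in GFP-negative cells, most of it in replicate 1, and 602, 379.5 and 556 CPM in bulk cells (adjusted p = 0.498). The remaining gRNAs among these 8 were chr9:110946834-110946856, chr9:110946995-110947017 and chr9:110947620-110947642. Their GFP-negative means were 2003 ± 1588, 2002 ± 1658 and 4369 ± 5576 CPM, against 218 ± 132, 212 ± 178 and 528 ± 97.9 CPM in bulk. The spread between their GFP-negative replicates was about as large as the mean, and no adjusted p of these was below 0.35.

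The 5 gRNAs called lower were almost absent from GFP-negative cells. chr9:110946687-110946708, 539.5 bp upstream, had 0 counts in all 3 GFP-negative libraries and 409, 371 and 324 CPM in bulk. Taking 3 counts in each GFP-negative library as the floor, it was at least 79.0-fold lower (adjusted p = 0.0397). It overlaps chr9:110946681-110946703, one of the highest gRNAs, whose interval starts 6 bp away. chr9:110946703-110946725 was at least 48.5-fold lower, chr9:110947426-110947448 at least 32.7-fold lower and chr9:110947060-110947082 at least 24.3-fold lower, with adjusted p = 0.019, 0.0131 and 0.0056. The last of the 5, chr9:110947458-110947480, had a single count in GFP-negative replicate 3 and 58.5, 113 and 37.1 CPM in bulk (adjusted p = 0.00814). With the block none passed, at adjusted p = 0.0936 for the first 4 and 0.178 for the last. Another gRNA without GFP-negative counts, chr9:110947498-110947520, had 192, 307 and 157 CPM in bulk and did not pass (adjusted p = 0.06).

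In GFP-medium cells the share of the upstream gRNAs overlapped that in GFP-negative cells, but was larger on average and more variable. The upstream gRNAs made up 17.4%, 24.9% and 26.9% of counts in GFP-medium replicates 1, 2 and 3, against 6.07%, 5.98% and 5.48% in bulk. The mean of 23.1% ± 5.03 was 3.95 times that in bulk (SD, n = 3, log2 ratio 1.98), again without overlap. Fewer gRNAs carried it: 50% of the stretch's counts were held by 10, 17 and 7 gRNAs in GFP-medium replicates 1, 2 and 3, by 13, 31 and 14 in GFP-negative and by 44, 51 and 45 in bulk. The median over all 213 was 0, 148 and 0 CPM in GFP-medium libraries, and over the whole library it was 0 in all 3.

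EdgeR called 0 of the 186 tested upstream gRNAs higher in GFP-medium cells, where 0% of all tested gRNAs were called. At an unadjusted p under 0.05 edgeR had 3 higher, where 0.221% of all were, and 19 lower, where 49.7% of all were. DESeq2, which gave no adjusted p for 21 of the 186 and 478 of all tested gRNAs in each comparison with bulk, called 9 (4.84%, against 0.567% of all) and limma-voom 0. DESeq2 also called 31 lower, against 51.9% of all. EdgeR called 14 lower (7.53%), where 40.3% of all tested gRNAs were called. With the replicate block it called 15 lower (8.06%), against 39.5% of all. The median fitted log2 change over all tested gRNAs was -6.44 here. Both comparisons use the same bulk libraries. The number called lower was 0 without any of GFP-medium replicates 1, 2 and 3, it was 7, 8 and 8 without bulk replicates 1, 2 and 3, and 23 without GFP-negative replicate 2. Leaving out GFP-negative replicate 1, 2 or 3, which touches only filter, scaling and pooled variance, gave 3, 3 and 1 called higher. For the fits without 1 library the share of all tested gRNAs called was not counted. All 3 GFP-medium libraries lay above all 3 bulk libraries for 17 of the 213 (7.98%), where 0.74% of the 3918 did, and below for 49 (23%), where 58.3% did. The 17 held 38.0% of the stretch's GFP-medium counts and 13.8% of its bulk counts, with a median fold of 11.8.

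Among the 17 gRNAs above every bulk library, 5 of the 8 largest fitted GFP-medium changes lay 1288 to 1374 bp upstream. chr9:110947521-110947543, 1374 bp upstream, had 1347, 4867 and 31212 CPM in GFP-medium replicates 1, 2 and 3, against 459.6, 250.3 and 306 CPM in bulk. Its levels differed widely between replicates, with replicate 3 highest (log2 change 5.00, adjusted p = 0.0657 by edgeR and 0.00177 by DESeq2). The gRNA starting 1 bp farther upstream, chr9:110947522-110947544, not among those 8, was much more even, with 4294, 7592 and 7084 CPM in GFP-medium and 435, 638 and 629.9 CPM in bulk (adjusted p = 0.133 by edgeR). chr9:110947436-110947458 had 4545, 4382 and 19613 CPM in GFP-medium and 393, 266 and 602 CPM in bulk cells (adjusted p = 0.0802). Its neighbour chr9:110947435-110947457 had 4887, 1435 and 8248 CPM in GFP-medium and 242, 178 and 454 CPM in bulk cells (adjusted p = 0.11). chr9:110947444-110947466, described above for GFP-negative cells, had 4562, 6846 and 14044 CPM in GFP-medium cells, a mean of 8484 ± 4949 CPM against 465 ± 205 CPM in bulk (log2 change 4.12, adjusted p = 0.0947). These gRNAs were above bulk in all 3 GFP-medium libraries, and none passed edgeR's test, with or without the block.

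Of the other gRNAs among those 8 largest changes, 1 lay in the same interval and the rest on either side of it. chr9:110947349-110947371 had 3374, 2311 and 10130.4 CPM in GFP-medium and 251, 339 and 324 CPM in bulk cells (adjusted p = 0.103). chr9:110947757-110947778, 1609.5 bp upstream, had 6507, 5382 and 18496 CPM in GFP-medium and 861, 945 and 352 CPM in bulk cells (adjusted p = 0.237). chr9:110947493-110947515, 1346 bp upstream, and chr9:110948033-110948054, 1885.5 bp upstream, rested mostly on a single library each, with 979, 8059 and 503 CPM for the first and 1332, 443 and 16852 CPM for the second in GFP-medium replicates 1, 2 and 3. By contrast chr9:110946710-110946732, even in GFP-negative cells, had 18126, 942 and 0 CPM in GFP-medium cells and did not separate from bulk there.

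None of the 14 gRNAs called lower had a GFP-medium count. The highest of them in bulk were chr9:110947019-110947041 with 660.2, 283 and 148 CPM, chr9:110948030-110948052 with 376, 396 and 185 CPM and chr9:110946704-110946726 with 159, 145 and 426 CPM in bulk replicates 1, 2 and 3. They were at least 51.7-fold, 45.4-fold and 34.6-fold lower in GFP-medium cells (adjusted p = 0.0377, 0.0439 and 0.0288). Among the 14 were chr9:110946703-110946725, chr9:110947426-110947448 and chr9:110947060-110947082, which had no GFP-negative count either (adjusted p = 0.0204, 0.0151 and 0.00708). Others of the 14 were chr9:110946841-110946863, chr9:110947086-110947108 and chr9:110947141-110947163 with adjusted p = 0.0209, 0.0316 and 0.0429. The last was present in 2 of the 3 GFP-negative libraries, with 0, 428 and 52.6 CPM in replicates 1, 2 and 3. A further gRNA without GFP-medium counts, chr9:110948122-110948144 at 217, 226 and 204 CPM in bulk, had adjusted p = 0.0628, or 0.0472 with the block. Its adjusted p ranged between 0.00478 and 0.172 over the alternatives.

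Set directly against each other, the sorted populations overlapped in the share of upstream gRNAs: 17.7%, 17.0% and 20.8% in GFP-negative and 17.4%, 24.9% and 26.9% in GFP-medium replicates 1, 2 and 3 (log2 ratio -0.32). EdgeR called 0 of the 186 in either direction, where 0% of all tested gRNAs were called. Before adjustment, 17 upstream gRNAs were higher with a p under 0.05, against 22.5% of all gRNAs, and 3 lower, against 1.99% of all. By DESeq2, which gave no adjusted p for 23 upstream and 656 of all gRNAs here, 14 were higher (7.53%) and 3 lower (1.61%), where 14.2% and 1.64% of all gRNAs were called. Limma-voom called 0 of the upstream gRNAs and 0.0315% of all higher. All 3 GFP-negative libraries lay above all 3 GFP-medium libraries for 11 of the 213 (5.16%, against 2.12% of all gRNAs) and below for 4 (1.88%, against 0.281%).

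Those 4 all lay 1289 to 1609.5 bp upstream. They were chr9:110947436-110947458, chr9:110947521-110947543, chr9:110947522-110947544 and chr9:110947757-110947778, with GFP-negative means of 1035 ± 589, 522 ± 490.3, 2393 ± 451 and 1628 ± 1649 CPM, against 9513 ± 8747, 12475 ± 16322, 6323 ± 1776 and 10128 ± 7269 CPM in GFP-medium cells. The adjusted p in edgeR's test was 0.366, 0.209, 0.815 and 0.642. In the opposite direction, chr9:110946802-110946824, 655 bp upstream, had 515, 788 and 1398 CPM in GFP-negative replicates 1, 2 and 3, against 0, 10.6 and 0 CPM in GFP-medium replicates. Its bulk levels were 326, 266 and 167 CPM, so it was above bulk in every GFP-negative and below bulk in every GFP-medium library (adjusted p = 0.179 for GFP-negative against GFP-medium by edgeR, 5.58e-04 by DESeq2). chr9:110947137-110947159, 990 bp upstream, had the same order, with 1500.3, 876 and 3370.4 CPM in GFP-negative cells, 45.5, 0 and 0 CPM in GFP-medium and 819, 573 and 519 CPM in bulk cells (adjusted p = 0.179 by edgeR). chr9:110947961-110947982, chr9:110947021-110947042 and chr9:110946808-110946829 were also above every GFP-medium library, with GFP-negative means of 746 ± 463, 1405 ± 1901 and 1629 ± 1767 CPM, against 7.22 ± 12.5, 39.0 ± 67.5 and 59.9 ± 102 CPM in GFP-medium cells.

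By position, all 6 steps of 250 bp from 500 to 2000 bp upstream took a larger mean share of both sorted populations than of bulk. The 39 gRNAs at 500 to 750 bp took 6.94%, 4.40% and 3.27% of GFP-negative counts, against 1.14%, 1.17% and 1.18% of bulk counts (log2 ratio 2.07). Every GFP-negative library was above every bulk library, and replicate 1 was highest. The share in GFP-medium cells was 4.72%, 3.16% and 1.97%, also without overlap with bulk. Of these 39 gRNAs, 7 were above bulk in every GFP-negative library and 1 in every GFP-medium library.

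The 51 gRNAs at 1250 to 1500 bp had the largest mean GFP-medium share of the 6 steps. In replicate 1, however, the step at 500 to 750 bp took more, at 4.72%. These 51 gRNAs took 4.19%, 10.9% and 11.7% of GFP-medium and 1.19%, 1.11% and 1.18% of bulk counts, a log2 ratio of 2.95. Of the 17 gRNAs above bulk in every GFP-medium library, 11 lay here. In GFP-negative cells the same step took 2.58%, 2.75% and 7.35%, with 9 gRNAs above bulk in every library. The 30 gRNAs at 1500 to 1750 bp took 1.67%, 3.80% and 3.14% of GFP-negative, 2.91%, 5.52% and 6.61% of GFP-medium and 1.20%, 1.13% and 0.878% of bulk counts. The sorted ranges overlapped there, and both lay above bulk.

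The other 3 steps had smaller mean shares in the sorted cells, but not all had smaller ratios to bulk. At 1000 to 1250 bp the mean GFP-negative share was 3.97 times that in bulk. It was 4.19, 3.65 and 2.69 times at 500 to 750, 1250 to 1500 and 1500 to 1750 bp. For GFP-medium the ratio at 1000 to 1250 bp was 2.92, against 2.82, 7.73 and 4.69 in the same order. At 750 to 1000 bp (33 gRNAs) they were 2.84%, 2.37% and 1.97% in GFP-negative, 0.936%, 2.59% and 1.32% in GFP-medium and 0.910%, 1.02% and 0.804% in bulk cells. GFP-negative and bulk did not overlap, while GFP-medium replicate 1 lay within the bulk range. At 1000 to 1250 bp (29 gRNAs) the gRNAs took 1.18%, 2.18% and 3.56% of GFP-negative, 0.790%, 1.80% and 2.50% of GFP-medium and 0.609%, 0.582% and 0.551% of bulk counts, with no overlap between either sorted population and bulk. At 1750 to 2000 bp (31 gRNAs) they took 2.51%, 1.53% and 1.47% of GFP-negative, 3.84%, 0.899% and 2.77% of GFP-medium and 1.02%, 0.974% and 0.892% of bulk counts. GFP-negative cells were above bulk there, and GFP-medium cells overlapped it.

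Steps of 100 bp, chosen after the values were seen, showed a dip of the mean GFP-medium share below bulk inside the stretch. The 14 gRNAs at 900 to 1000 bp took 0.278%, 0.565% and 0.703% of GFP-negative, 0.0466%, 0.101% and 0.113% of GFP-medium and 0.320%, 0.408% and 0.302% of bulk counts. The GFP-medium libraries were thus all below bulk there, and the GFP-negative ones overlapped it. At 1000 to 1100 bp (8 gRNAs) they took 0.565%, 0.372% and 0.492% of GFP-negative, 0.0375%, 0.161% and 0.150% of GFP-medium and 0.160%, 0.185% and 0.172% of bulk counts. The GFP-medium libraries overlapped bulk in that step, and the GFP-negative ones were all above it. In every other step of 100 bp the mean GFP-medium share was above that of bulk, from a log2 ratio of 0.73 at 1900 to 2000 bp to 3.19 at 1300 to 1400 bp. Single GFP-medium libraries still overlapped bulk at 500 to 600, 600 to 700, 800 to 900, 1800 to 1900 and 1900 to 2000 bp. The 1300 to 1400 bp step was lopsided, with 0.444%, 0.839% and 1.22% of GFP-negative and 0.962%, 5.14% and 4.87% of GFP-medium counts, against 0.377%, 0.404% and 0.421% of bulk counts.

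The stretch holds a pair of sites that the study listed for deep sequencing of mutations, with samples labelled as the Tdgf1 enhancer; their reads were not analysed here. The sites are listed at 110947445-110947467 and 110947457-110947478 on chromosome 9. No source used here states if coordinates start at 0 or at 1. Shifted down by 1 bp they match chr9:110947444-110947466 and chr9:110947456-110947477, and the first also matches chr9:110947445-110947467 without a shift. The levels of these candidates differed greatly. chr9:110947444-110947466 is the gRNA at 1297 bp described above, higher than bulk in every sorted library. chr9:110947445-110947467, 1 bp away, had 0, 232 and 0 CPM in GFP-negative cells, 0, 18.5 and 0 CPM in GFP-medium and 16.7, 0 and 27.8 CPM in bulk cells, and was too low to be tested. chr9:110947456-110947477 had 137, 0 and 0 CPM in GFP-negative cells, 84.4, 0 and 0 CPM in GFP-medium and 226, 0 and 18.5 CPM in bulk cells. Its counts came almost entirely from replicate 1 in all 3 populations, and neither comparison with bulk passed (adjusted p = 0.971 and 0.8).

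In all, 23 gRNAs overlap the 2 listed sites, counted from 110947444 to 110947478. Of these, 9 were counted in all 3 GFP-negative libraries and 7 in all 3 GFP-medium libraries, while 8 had no GFP-negative and 9 no GFP-medium count. Of the 8 without a GFP-negative count, chr9:110947426-110947448 lay at the lower edge, and the others all started from 110947464 to 110947473. Between them, high and scarce gRNAs lay within a few bases of each other. chr9:110947438-110947460 had 911, 544 and 523 CPM in GFP-negative cells, 788, 1076 and 429 CPM in GFP-medium and 318, 105 and 306 CPM in bulk cells, above bulk in every sorted library. chr9:110947443-110947465 had 19.5, 104 and 0 CPM in GFP-negative cells, 13.0, 0 and 0 CPM in GFP-medium and 125, 113 and 18.5 CPM in bulk cells. chr9:110947451-110947473 had 6.52, 1782 and 1579 CPM in GFP-negative cells, 2555, 6376 and 1012 CPM in GFP-medium and 577, 476 and 917 CPM in bulk cells. chr9:110947452-110947474, 1 bp away, had 6.52, 1748 and 5406 CPM in GFP-negative cells, 0, 2909.7 and 3299.7 CPM in GFP-medium and 760.5, 783 and 824 CPM in bulk cells. Both were scarce in GFP-negative replicate 1 and above bulk in GFP-negative replicates 2 and 3.

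At the upper end of the listed sites lay gRNAs that were scarce already in bulk. The 9 gRNAs that start from 110947464 to 110947473 had at most 176 CPM in any bulk library, and 3 of them had no count in any library. chr9:110947467-110947489 had 0, 0 and 1531 CPM in GFP-medium cells, and no other of the 9 passed 66 CPM in a sorted library. Of the 9, 7 were too low to be tested, and the other two did not pass in either comparison with bulk. At the lower end, chr9:110947430-110947452 had 634, 20.9 and 10016 CPM in GFP-negative cells, 4.33, 686 and 694 CPM in GFP-medium and 25.1, 105 and 306 CPM in bulk cells. chr9:110947437-110947459 had 2544, 765 and 1855 CPM in GFP-negative cells, 1260.2, 10032 and 122 CPM in GFP-medium and 476, 388 and 148 CPM in bulk cells. Next to the 9 scarce gRNAs, chr9:110947462-110947483 had 119, 460.2 and 52.6 CPM in GFP-negative cells, 0, 2187 and 0 CPM in GFP-medium and 134, 88.8 and 0 CPM in bulk cells.

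The ends of the stretch were no sharp borders. The first gRNA inside, chr9:110946654-110946675, had 321, 1465 and 0 CPM in GFP-negative cells, 0, 156 and 0 CPM in GFP-medium and 677, 242 and 195 CPM in bulk cells. The last, chr9:110948145-110948167, had 1536, 453 and 2301 CPM in GFP-negative cells, 279, 0 and 0 CPM in GFP-medium and 276, 209.9 and 269 CPM in bulk cells. In the 250 bp just closer to the gene, 43 gRNAs took 3.46%, 3.46% and 6.87% of GFP-negative, 3.82%, 4.60% and 5.46% of GFP-medium and 1.09%, 0.813% and 1.06% of bulk counts. In the 250 bp just beyond, 31 gRNAs took 1.52%, 2.33% and 2.57% of GFP-negative, 1.06%, 1.87% and 1.05% of GFP-medium and 0.796%, 0.839% and 0.811% of bulk counts. On both sides the sorted shares were above bulk in every library.

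Beside like stretches, the upstream gRNAs took similar shares of GFP-negative and GFP-medium counts. The 123 gRNAs within 0.5 kb of the 5′ end took 9.77%, 11.7% and 16.3% of GFP-negative, 22.1%, 27.2% and 24.3% of GFP-medium and 3.54%, 3.44% and 3.49% of bulk counts. The 120 gRNAs 0.5 to 2 kb inside the gene took 4.43%, 4.93% and 5.15% of GFP-negative and 13.0%, 11.4% and 15.2% of GFP-medium counts, and 3.63% ± 0.123 of bulk counts (SD, n = 3). The log2 ratio of GFP-negative to GFP-medium shares was -0.32 upstream, -0.96 at the 5′ end and -1.45 inside the gene. Of these 3 stretches, the GFP-negative and GFP-medium shares overlapped only for the upstream one. Of the gRNAs, 12.2% upstream, 9.76% at the 5′ end and 2.50% inside the gene were above bulk in every GFP-negative library. For GFP-medium libraries it was 7.98%, 7.32% and 0% in the same order. The mean GFP-negative share was 3.17, 3.61 and 1.33 times that in bulk, and the mean GFP-medium share 3.95, 7.04 and 3.63 times. The ratios to bulk were thus larger at the 5′ end than upstream. Farther out, the 182 gRNAs 2 to 3.5 kb upstream took 5.24%, 7.57% and 8.01% of GFP-negative, 3.27%, 4.93% and 3.73% of GFP-medium and 5.05%, 4.86% and 4.85% of bulk counts. These are sums over neighbouring gRNAs, and the differences between stretches were not tested.

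Among the 213, the level in bulk went with detection after sorting. The 73 gRNAs counted in all 3 GFP-negative libraries had a median bulk mean of 382 CPM, and the 23 counted in none had 19.5 CPM. For GFP-medium libraries the 43 counted in all 3 had 432 CPM and the 39 counted in none 69.5 CPM. GFP-negative shares of the more frequent gRNAs were above bulk in both classes, while those of the scarcest gRNAs overlapped it. The 81 gRNAs with at least 300 CPM in bulk took 11.1%, 11.1% and 13.8% of GFP-negative and 4.23%, 3.93% and 3.66% of bulk counts. The 83 with 100 to 300 CPM took 6.30%, 5.18% and 6.77% of GFP-negative and 1.65%, 1.79% and 1.61% of bulk counts. The 49 with less than 100 CPM took 0.287%, 0.760% and 0.229% of GFP-negative and 0.189%, 0.259% and 0.210% of bulk counts. In GFP-medium cells the shares of each class lay above bulk in every library. Over the 213 gRNAs, Pearson's r of log2(CPM + 10) between replicates was 0.32 to 0.45 in GFP-negative, 0.31 to 0.43 in GFP-medium and 0.53 to 0.69 in bulk cells, a description over gRNAs that share libraries.

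Both interval lengths took larger shares of the sorted than of the bulk counts. The 39 gRNAs whose end is 21 above their start took 3.07% ± 0.554 of GFP-negative, 4.34% ± 1.67 of GFP-medium and 1.20% ± 0.140 of bulk counts (SD, n = 3). The 174 with a difference of 22 took 15.4% ± 2.47 of GFP-negative, 18.7% ± 3.62 of GFP-medium and 4.64% ± 0.184 of bulk counts. The log2 ratio of GFP-negative to bulk shares was 1.35 for the shorter and 1.73 for the longer intervals.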

How the data were processed

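The members, lists and tests were chosen with earlier results of these data known. Genomic DNA of the 9 Tdgf1 libraries was amplified by PCR of the gRNA sequence. The authors deposited raw counts per gRNA, whole numbers with intervals on mm10 per the labels' protocols and the submitters' processing notes. No source used here names the counting program. PCR reads without molecular identifiers are not independent molecules. The placeholder gRNA (0.104 to 0.370% of GFP-negative, 0.0198 to 0.178% of GFP-medium and 3.53 to 11.3% of bulk counts) was left out of totals, so shares and CPM are relative to the other gRNAs.

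Counts were tested with edgeR 4.0.16 (R 4.3.3): filterByExpr with a minimum count of 10, TMM, robust quasi-likelihood F tests over 9 libraries and 3 populations, and Benjamini-Hochberg adjustment over 3172 gRNAs at 0.05. The script was tested on simulated counts, with a pass mark only for a spread chosen in advance, not for the spread of these data. Alternatives were DESeq2 1.42.0, limma-voom (limma 3.58.1), TMMwsp, total counts, no filter, fewer libraries and a replicate block. Shares, position steps and non-overlapping libraries were described without a test. Named gRNAs were the 8 largest fitted changes among called gRNAs and among those above every bulk library, up to 5 separated between the sorted populations, those with no sorted count and the highest bulk level, the listed sites with overlapping gRNAs, and the ends of the stretch; other gRNAs named were chosen after their values were seen. Gene positions come from RefSeq.

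The replicate numbers pair the libraries: the labels take each population from a numbered replicate of the line. Deviations from the population means correlated at 0.101 to 0.445 for the same number and at -0.256 to -0.022 for different numbers, over gRNAs. Deviations from a mean cancel within a population, so the negative values follow from the positive ones and add no separate evidence.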

Additional observations from a re-analysis of the deposited data

How the results depend on the processing

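The larger sorted shares of the upstream gRNAs rest on sums, which frequent gRNAs dominate. The log2 ratio of shares was 1.66 for GFP-negative against bulk, 1.98 for GFP-medium against bulk and -0.32 for GFP-negative against GFP-medium, and changed sign with 2 other summaries. As the share of gRNAs with at least 10 CPM the log2 ratios were -0.54, -0.87 and 0.33, and as the mean of log2(CPM + 10) the differences were -0.41, -1.12 and 0.71. Of 36 alternatives for these ratios, the other 30 moved them by less than the replicate spread. With the replicate block they were 1.66, 1.96 and -0.30.

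Counts of called upstream gRNAs varied. For the fits with TMMwsp, with only 6 libraries or with 1 library left out, the share of all tested gRNAs called was not counted. Those numbers therefore cannot be set against the whole library. Lower in GFP-negative cells than in bulk, there were 5 in the stated fit, 9 with DESeq2, 0 with limma-voom, 0 with the replicate block and 3 to 21 when 1 library was left out. Lower in GFP-medium cells than in bulk, there were 14, and 31 with DESeq2, 0 with limma-voom, 15 with the replicate block and 0 to 23 when 1 library was left out. Higher in GFP-medium cells there were 0, and 9 with DESeq2, 1 with TMMwsp, 6 with only the 6 libraries compared and 0 to 3 when 1 library was left out. Higher in GFP-negative cells than in bulk there was 1 with only the 6 libraries. Between GFP-negative and GFP-medium cells DESeq2 called 14 higher and 3 lower, against 0 in the stated fit. The cause of these differences was not tested.

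For the gRNAs named with a test, 573 of 668 alternative values kept direction and side of the threshold, 59 lost a call, 33 gained one and 3 changed sign. The 573 include gRNAs called in neither fit, and a missing adjusted p counted as not called. Only gRNAs called in the stated fit could lose a call, so the 668 are not the base for the 59. The 3 that changed sign were of chr9:110947456-110947477, with log2 changes against bulk of 2.31 (GFP-negative) and 1.91 (GFP-medium) without bulk replicate 1, and of 0.14 (GFP-negative) with TMMwsp. Leaving out 1 library gave -7.65 to 2.31 for GFP-negative and -7.72 to 1.91 for GFP-medium. TMMwsp moved the median of all gRNAs by 0.38, 0.92 and -0.41 (log2) in the 3 comparisons, and DESeq2 by -1.08, -1.05 and -0.27. A single count is worth 8.07 to 9.26 CPM in bulk, so lower levels of gRNAs near that value were not detectable at this depth.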

Other observations

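Sorted counts of single upstream gRNAs often came from 1 library. Among gRNAs with a mean of at least 100 CPM, 44 of 152 upstream gRNAs (28.9%) had at least 90% of their GFP-negative level in 1 of the 3 libraries, against 647 of 1257 other gRNAs (51.5%). In GFP-medium cells it was 51 of 120 upstream (42.5%), against 524 of 762 others (68.8%). In bulk it was 1 of 164 upstream gRNAs and 8 of 2779 others. These are counts over gRNAs that share libraries and were not tested.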
